A study of Mus musculus with 8 samples.

Results

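The genes described here are 8 genes of enteric neurons: the neuropeptide genes Vip, Tac1 and Npy, the nitric oxide synthase gene Nos1, and the structural neuron genes Snap25, Prph, Elavl4 and Uchl1. They were chosen by name, through every probe set that the platform annotation assigns to exactly 1 of them, which gave 18 probe sets for 8 of the 18193 genes with such a probe set. All 8 were above the detection floor used here on at least 2 of the 8 arrays and were tested.

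The study measured total RNA on Affymetrix mouse arrays, with 1 array for each of 8 groups of C57BL/6 mice aged 110 days. Tumour groups were spontaneous colon tumours and spontaneous tumours of the small intestine (ileum) from ACKR2-/-ApcMin/+ mice, and the same tumours from ApcMin/+ mice. Groups without tumours were colon and small intestine of ACKR2-/- mice and of WT mice. ApcMin is a truncating germline mutation of the tumour suppressor Apc that causes intestinal adenomas, and ACKR2, or D6, scavenges inflammatory chemokines without conventional receptor signalling. RNA had been pooled within each genotype and tissue, the number of mice in a pool was not given, and so no value here carries an estimate of variation between mice. Tissue without tumours came from mice without the ApcMin allele, so tumour status and Apc genotype cannot be told apart. ACKR2 is deleted on both sides of the tumour comparison in ACKR2-/- mice and intact on both sides in the other.

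Enteric neurons lie in ganglia between the muscle layers and in the submucosa, and their fibres reach the muscle, the vessels and the crypts. VIP and nitric oxide relax gut muscle, VIP also drives secretion by the epithelium, and the tachykinins made from Tac1 contract muscle. The structural genes are expressed by most neurons, and the peptide genes mark subsets of them.

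Values are MAS5 signals, a linear intensity scaled by array, which compare 1 gene between arrays and not 1 gene with another. Signals below a floor of 64.1 were raised to it before log2 was taken, and a fold against an array at the floor is given as a bound. Log2 differences have their standard error (SE) and an adjusted p from 1 limma model over all arrays, with Benjamini-Hochberg adjustment over 14023 genes and a threshold of 0.05. The spread in that model is how far the ACKR2 difference varied between colon and small intestine, so its p-values describe these arrays alone. In bulk tissue, fewer neurons and less RNA per neuron cannot be told apart.

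Several measures of the arrays moved with the groups. Array medians were 96 and 103 in ACKR2-/-ApcMin/+ tumours and 115 and 128 in ApcMin/+ tumours, and 85.7 and 85.2 in ACKR2-/- tissue, against 133 and 118 in WT tissue. The Actb 3'/5' ratio was 1.28 to 1.39 on the 4 ACKR2-/- arrays with or without tumour, and 1.13 to 1.17 on the other 4. The Gapdh 3'/5' ratio did not separate them, at 0.74 to 0.866 on the ACKR2-/- arrays and 0.772 to 0.952 on the other 4. Xist read 77.9 and 127 in ACKR2-/-ApcMin/+ tumours, against 2954 and 4827 in ApcMin/+ tumours, and 4522 and 2818 in ACKR2-/- tissue, against 9809 and 7807 in WT tissue. The Y-linked gene Eif2s3y read 888 to 1501 on 6 arrays, against 2.92 and 2.66 on the WT arrays of colon and small intestine, so the pools differed in the sexes they held. Ackr2 read 122 and 76.4 in ACKR2-/-ApcMin/+ tumours and 107 and 90.7 in ApcMin/+ tumours, and 153 and 71.3 in ACKR2-/- tissue, against 116 and 107 in WT tissue. Its probe set did not separate the genotypes, its place relative to the deleted part was not given in the sources used here, and the genotypes rest on the labels. Insl5, a peptide hormone gene of the colon, read 603 to 3716 on the 4 colon arrays and 10.6 to 31.3 on the 4 arrays of small intestine. The part of sex and RNA quality in the results below was not tested, other than by the values given beside them.

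Tumours held less RNA of most of these neuron genes. Averaged over both tissues, 6 of the 8 fell at an adjusted p under 0.05 and 0 rose, where 12.0% of all genes tested were lower and 13.1% higher. Leaving out any 1 array, which leaves 1 residual degree of freedom, took this count, and that of all genes, to 0. With the 4 tumour pairs as blocks, a fit chosen after the data were seen, 2 of the 8 fell, Snap25 (adjusted p = 0.0249) and Elavl4 (adjusted p = 0.0363 by limma), and 787 of 14023 genes were called. The median log2 difference of the 8 was -1.16, against 0.033 for all genes. All 4 structural genes fell, as did the neuropeptide genes Vip and Tac1, while Npy and Nos1 did not pass the test. Taken tissue by tissue, 5 of the 8 were lower in colon tumours, where 12.6% of all genes were lower and 11.0% higher, and 0 of the 8 in tumours of the small intestine, where 1.20% were lower and 2.77% higher. Of the 8, 5 had an unadjusted limma p under 0.05 in the small intestine, and 1 was called there under some other settings: Vip without the floor (adjusted p = 0.0434), and Snap25 after quantile normalization (adjusted p = 0.0312). The tumour difference of the colon minus that of the small intestine passed for 0 of 8 (3 at an unadjusted p under 0.05, lowest adjusted p = 0.209 by limma), where 2.25% of all genes passed. A difference between the tissues in the size of the fall was therefore not shown.

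**Figure D1:**
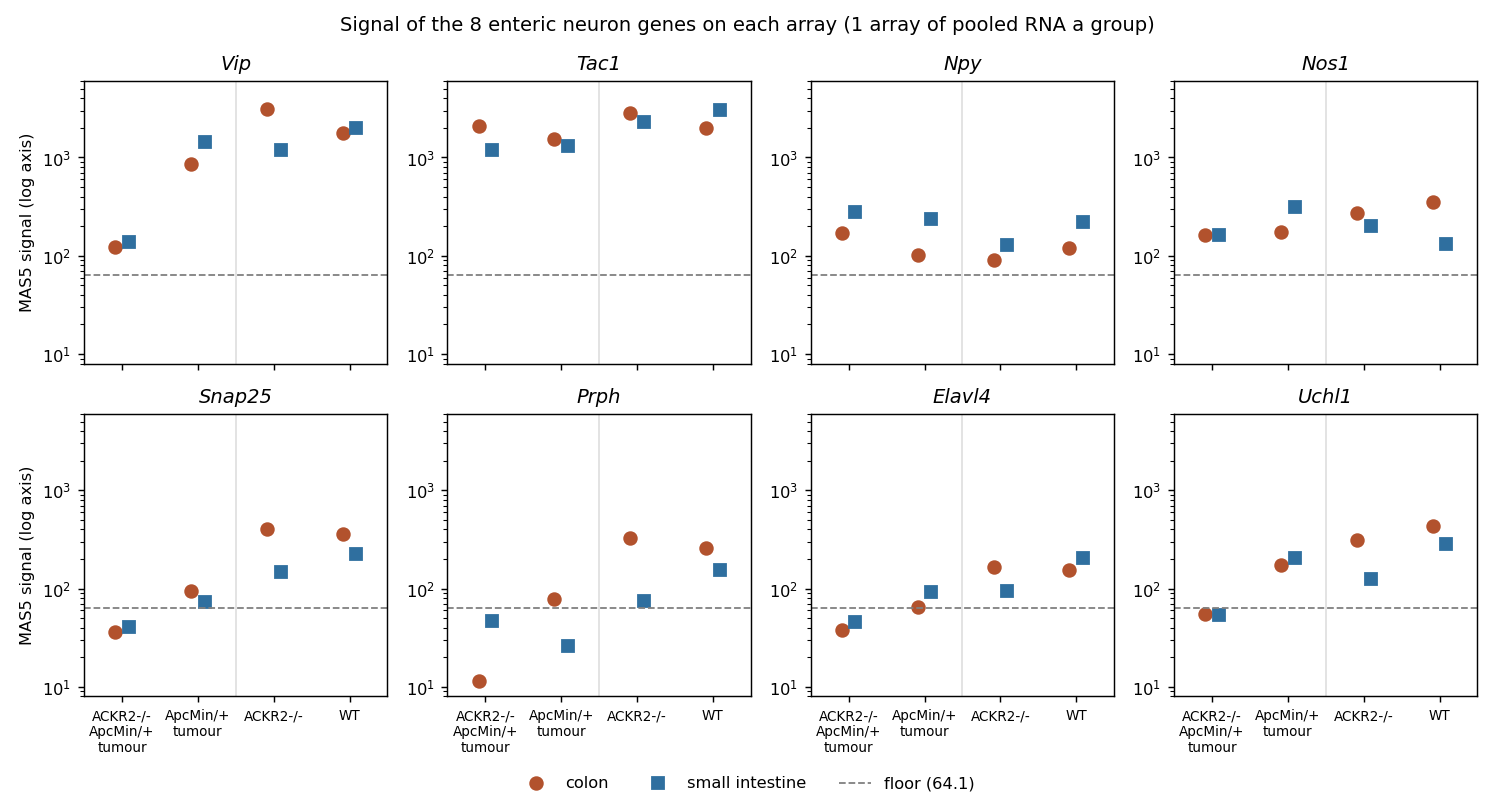
MAS5 signal (log scale) of the chosen probe set of each of the 8 genes on each of the 8 arrays, 1 point an array, tumour arrays left of non-tumour arrays, with the detection floor of 64.1 as a dashed line. Vip stood at 124 and 139 in ACKR2-/-ApcMin/+ tumours and at 850 or more on every other array, and Snap25 was lower on all 4 tumour arrays than on all 4 non-tumour arrays.

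Vip encodes vasoactive intestinal peptide, a relaxant and secretomotor peptide of inhibitory motor neurons and of submucosal neurons. In the colon its signal was 124 in ACKR2-/-ApcMin/+ tumours and 850 in ApcMin/+ tumours, against 3124 in ACKR2-/- and 1785 in WT tissue. In the small intestine it was 139 in ACKR2-/-ApcMin/+ tumours and 1451 in ApcMin/+ tumours, against 1189 in ACKR2-/- and 1983 in WT tissue. The ACKR2-/-ApcMin/+ tumours thus stood far below everything else, and the ApcMin/+ tumour of the small intestine overlapped the tissue without tumours. The averaged tumour difference was -2.32 (SE 0.263, adjusted p = 0.00396 by limma), with -2.86 (SE 0.372, adjusted p = 0.00583) in colon and -1.78 (SE 0.372, adjusted p = 0.061) in small intestine. Pair by pair, Vip was 25.2-fold lower in ACKR2-/-ApcMin/+ colon tumours than in ACKR2-/- colon and 8.57-fold lower in the small intestine of the same genotypes. In ApcMin/+ tumours against WT tissue it was 2.1-fold lower in colon and 1.37-fold lower in small intestine. Fitted without the ACKR2-/-ApcMin/+ arrays, the averaged difference was -0.76, and without the WT arrays it was -3.88. Neither passed, but each of these fits left 1 residual degree of freedom, too few for a failed test to decide anything about Vip.

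The promoter of Vip, which had the lowest of the 8 differences between the tumour genotypes (a difference that did not pass the test, given below), is shown beside those of Tac1, a peptide gene with a value near 0 in that comparison, and Uchl1, the structural gene next to Vip in it. Each line is the 250 bases before the transcription start in the RefSeq promoter table, 5′ to 3′ on the gene's strand (GRCm38.p6), from chr10:5638968-5639217 (Vip), chr6:7554811-7555060 (Tac1) and chr5:66675871-66676120 (Uchl1), all on the plus strand. For Vip that start is position 5639218, and the outermost annotated start of the gene is 5639193, so the last 25 bases of its window lie within the annotated gene. Capitals mark TGACG on either strand (CGTCA where it is on the minus strand), the core of the cyclic AMP response element. They also mark TATAAA on the plus strand, a match to the TATA box sequence whatever its distance from the start.
Vip: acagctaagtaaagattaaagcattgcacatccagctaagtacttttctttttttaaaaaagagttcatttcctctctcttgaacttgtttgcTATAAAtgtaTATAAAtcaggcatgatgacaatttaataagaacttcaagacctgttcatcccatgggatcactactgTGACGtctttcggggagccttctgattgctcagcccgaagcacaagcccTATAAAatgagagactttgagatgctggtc
Tac1: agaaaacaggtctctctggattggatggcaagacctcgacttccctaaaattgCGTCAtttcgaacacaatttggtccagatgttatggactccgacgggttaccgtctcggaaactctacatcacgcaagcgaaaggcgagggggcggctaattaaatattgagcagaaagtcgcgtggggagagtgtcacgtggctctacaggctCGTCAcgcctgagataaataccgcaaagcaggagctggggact
Uchl1: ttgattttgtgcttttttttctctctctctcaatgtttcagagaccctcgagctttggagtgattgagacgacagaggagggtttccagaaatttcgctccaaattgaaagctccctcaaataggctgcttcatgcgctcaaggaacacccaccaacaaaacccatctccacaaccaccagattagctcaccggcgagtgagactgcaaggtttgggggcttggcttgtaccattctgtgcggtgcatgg
In the Vip window, TGACG began 79 bases before the start at 5639218 and TATAAA lay at 157, 147 and 30 bases before it. Tac1 had TGACG on the minus strand at 197 and 43 bases and no TATAAA, and Uchl1 had neither. Of 32851 such windows in the mouse table, 17.8% held TGACG and 12.4% held TATAAA, each counted on either strand. The share with TATAAA on the plus strand alone was not counted. Promoter entries were found for 7 of the 8 genes. These letters are a description of the windows and the arrays did not measure binding there.

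Tac1 encodes the precursor of substance P and neurokinin A, the excitatory tachykinins, and is also expressed by enterochromaffin cells of the epithelium. In the colon it read 2080 in ACKR2-/-ApcMin/+ and 1544 in ApcMin/+ tumours, against 2813 in ACKR2-/- and 2011 in WT tissue. Small-intestinal readings were 1189 in ACKR2-/-ApcMin/+ and 1321 in ApcMin/+ tumours, against 2289 in ACKR2-/- and 3042 in WT tissue. Each tumour array was below its own non-tumour partner, with the colon values close together and overlapping across genotypes. The averaged difference was -0.74 (SE 0.18, adjusted p = 0.031 by limma). As the mean of its probe sets the difference was -0.39 and was not called. The other Tac1 probe set was above the floor on 1 array alone (71.9 in WT small intestine), which shrinks that mean. Its pairs spanned a log2 difference of -0.38 in ApcMin/+ colon tumours to -1.2 in ApcMin/+ tumours of the small intestine.

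Npy encodes neuropeptide Y, a peptide of some enteric neurons and of sympathetic fibres to the gut. In the colon it read 170 in ACKR2-/-ApcMin/+ and 103 in ApcMin/+ tumours, against 91.2 in ACKR2-/- and 120 in WT tissue. In the small intestine it read 277 in ACKR2-/-ApcMin/+ and 236 in ApcMin/+ tumours, against 128 in ACKR2-/- and 223 in WT tissue. It was the only one of the 8 with an averaged difference above 0, at 0.47 (SE 0.187), which did not pass (adjusted p = 0.116 by limma). The higher tumour values came from the ACKR2-/- pairs, with log2 differences of 0.9 in colon and 1.12 in small intestine, against -0.23 and 0.083 in the pairs of ApcMin/+ tumours with WT tissue.

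Nos1 encodes the neuronal nitric oxide synthase of inhibitory motor neurons. In the colon its brightest probe set read 162 in ACKR2-/-ApcMin/+ and 175 in ApcMin/+ tumours, against 271 in ACKR2-/- and 356 in WT tissue. Small-intestinal readings were 163 in ACKR2-/-ApcMin/+ and 310 in ApcMin/+ tumours, against 203 in ACKR2-/- and 132 in WT tissue. Colon tumours were below colon in both pairs, and the small-intestinal pairs went opposite ways. The averaged difference was -0.21 (SE 0.253, adjusted p = 0.577), and in colon it was -0.88 (SE 0.358, adjusted p = 0.129 by limma). A dimmer Nos1 probe set read 25.1 and 93.8 in the colon tumours of ACKR2-/-ApcMin/+ and ApcMin/+ mice, against 119 and 275 in the colon of ACKR2-/- and WT mice. In the small intestine that probe set read 34 and 111 in tumours of the same genotypes, against 43.8 and 87.9 in ACKR2-/- and WT tissue. The other two Nos1 probe sets were below the floor on every array.

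Snap25 encodes a membrane protein of the SNARE complex that fuses synaptic vesicles. In the colon it read 36.2 in ACKR2-/-ApcMin/+ and 94.1 in ApcMin/+ tumours, against 407 in ACKR2-/- and 362 in WT tissue. In the small intestine it read 40.3 in ACKR2-/-ApcMin/+ and 72.7 in ApcMin/+ tumours, against 147 in ACKR2-/- and 226 in WT tissue. All 4 tumour arrays were below all 4 non-tumour arrays, a separation that Elavl4 shared and that 4.22% of all genes showed in this direction. Snap25 had the lowest adjusted p of the 8, with an averaged difference of -1.86 (SE 0.2, adjusted p = 0.0034 by limma). The size was -0.56 with the floor at the 60th percentile and -0.93 as the mean of its probe sets, and both were called. The other Snap25 probe set was below the floor on every array, which shrinks that mean by construction. In the ApcMin/+ pairs it was 3.85-fold lower in colon and 3.11-fold lower in small intestine, and in the ACKR2-/- pairs at least 6.34-fold and at least 2.29-fold lower.

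Prph encodes peripherin, an intermediate filament of peripheral neurons. In the colon it read 11.4 in ACKR2-/-ApcMin/+ and 79.2 in ApcMin/+ tumours, against 327 in ACKR2-/- and 256 in WT tissue. Small-intestinal readings were 47.1 in ACKR2-/-ApcMin/+ and 26 in ApcMin/+ tumours, against 74.2 in ACKR2-/- and 154 in WT tissue. Its colon pairs lay far apart, and 3 of the 4 tumour arrays were at the floor, so the small-intestinal pairs are bounds of at least 1.16-fold (ACKR2-/-) and at least 2.4-fold (ApcMin/+ against WT). The difference was -1.38 averaged (SE 0.25, adjusted p = 0.0136) and -2.02 in colon (SE 0.353, adjusted p = 0.0129 by limma). With so many readings at the floor these sizes depend on it. Averaged, the value was -2.44 without the floor and -0.3 with the floor at the 60th percentile (not called). As the mean of all its probe sets it was -0.35 (not called). In colon the values were -3.27, -0.59 and -0.51 in the same order (the last not called). The other Prph probe sets were below the floor on every array. The mean over probe sets is therefore smaller by construction and is no second reading of Prph.

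Elavl4 encodes HuD, an RNA-binding protein of neurons. In the colon it read 38.3 in ACKR2-/-ApcMin/+ and 65.6 in ApcMin/+ tumours, against 165 in ACKR2-/- and 153 in WT tissue. In the small intestine it read 45.8 in ACKR2-/-ApcMin/+ and 92.8 in ApcMin/+ tumours, against 94.2 in ACKR2-/- and 204 in WT tissue. The groups did not overlap, although the highest tumour value lay just under the lowest non-tumour value. The averaged difference was -1.07 (SE 0.234, adjusted p = 0.023 by limma). Its other two probe sets were dimmer: one read 16.4 to 30.3 in tumours and 77.9 to 161 in tissue without tumours, and the other read 11 to 38.1 in tumours and 49.7 to 120 in tissue without tumours.

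Uchl1 encodes a ubiquitin hydrolase abundant in neurons and widely used to stain enteric ganglia. In the colon it read 55 in ACKR2-/-ApcMin/+ and 174 in ApcMin/+ tumours, against 311 in ACKR2-/- and 436 in WT tissue. Small-intestinal readings were 54 in ACKR2-/-ApcMin/+ and 205 in ApcMin/+ tumours, against 126 in ACKR2-/- and 281 in WT tissue. Both ACKR2-/-ApcMin/+ arrays were at the floor, and the ApcMin/+ tumours lay between the 2 tissues of the ACKR2-/- mice. The averaged difference was -1.26 (SE 0.194, adjusted p = 0.00879 by limma), with a colon difference of -1.8 (SE 0.275, adjusted p = 0.00865). With the floor at the 60th percentile these were -0.58 and -0.94, and both were called.

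**Figure D2:**
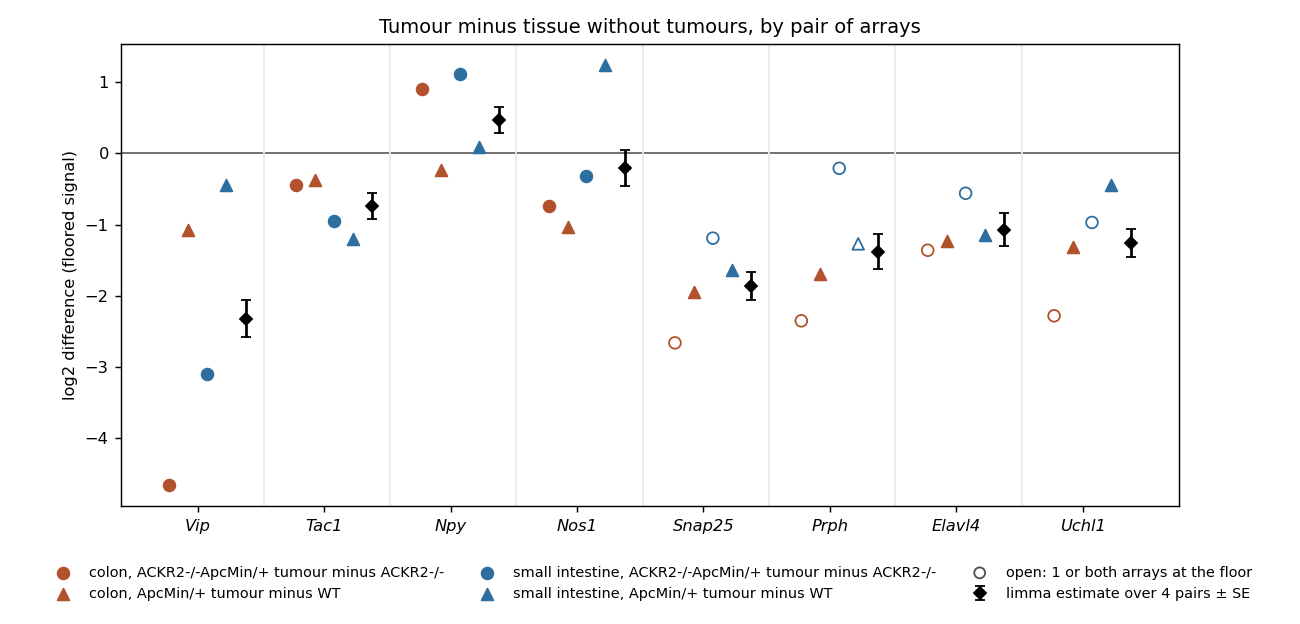
Log2 difference of each tumour array from its non-tumour partner of the same ACKR2 status and tissue, for the 8 genes, after raising signals to the floor. Points below 0 are lower in tumours. Vip reached -4.66 in the ACKR2-/- colon pair and -0.45 in the small-intestinal pair of ApcMin/+ against WT, and Npy was above 0 in 3 of the 4 pairs.

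Of the 8 genes, 5 were at least 2-fold lower in the ACKR2-/- colon pair (11.7% of all genes), 6 in the colon pair of ApcMin/+ against WT (8.91%), 2 in the ACKR2-/- small-intestinal pair (3.37%) and 4 in the small-intestinal pair of ApcMin/+ against WT (3.94%). In each small-intestinal pair 1 of the 8 was at least 2-fold higher. This was Npy in the ACKR2-/- pair (5.96% of all genes) and Nos1 in the pair of ApcMin/+ against WT (6.05%). The dimmer Nos1 probe set read 111 in that ApcMin/+ tumour array, against 87.9 in WT tissue. These pairs have no replicates and no test. The count of called members was 0 without the filter on low signals, for the averaged and the colon difference. Fits without both WT arrays, without both ACKR2-/-ApcMin/+ arrays or, for the colon, without any 1 array left 1 residual degree of freedom. No member was called in those fits either, but they cannot decide whether these genes fell.

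The second comparison set ACKR2-/-ApcMin/+ tumours against ApcMin/+ tumours, where the ACKR2 genotype is the labelled difference. None of the 8 genes passed by limma (2 at an unadjusted p under 0.05), where 5 genes of all 14023 were called, or 0.0357%. Vip nevertheless had rank 3 from the lowest of all genes, with a log2 difference of -3.08 (SE 0.372, 95% interval -3.99 to -2.18, adjusted p = 0.0867 by limma). Without the floor the same difference passed, with an adjusted p of 0.035. Vip was 6.87-fold lower in the colon pair and 10.5-fold lower in the small-intestinal pair. Uchl1 was next of the 8, at -1.56 (SE 0.275, adjusted p = 0.149), with bounds of at least 2.72-fold lower in colon and at least 3.2-fold lower in small intestine. Vip and Uchl1 were the only 2 of the 8 at least 2-fold lower in both tumour pairs, a criterion that 1.35% of all genes met. The other 6 lay between -0.52 (Nos1) and 0.48 (Npy), with adjusted p from 0.424 to 0.879. Of those 6, Snap25, Prph and Elavl4 were at the floor in both ACKR2-/-ApcMin/+ tumours, so their differences there are limited by detection. The same pairs differed in Xist, as given above, and in summed smooth muscle signal, at 8507 in ACKR2-/-ApcMin/+ against 32822 in ApcMin/+ colon tumours and 8758 against 22184 in the small-intestinal tumours of the same genotypes. The part of these in the Vip and Uchl1 values was not tested.

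Without tumours, the same deletion (ACKR2-/- against WT) left Vip with a difference of 0.035 (SE 0.372, adjusted p = 0.988 by limma), the mean of 0.81 in colon and -0.74 in small intestine. None of the 8 passed (1 at an unadjusted p under 0.05), where 0.685% of all genes did, and the lowest adjusted p was that of Uchl1 (-0.82, SE 0.275, adjusted p = 0.138). In the colon pair 5 of the 8 were higher in ACKR2-/- tissue, and in the small-intestinal pair 7 of the 8 were lower. Elavl4, Prph and Uchl1 differed by -1.12, -1.06 and -1.16 in the small-intestinal pair, against 0.11, 0.35 and -0.49 in the colon pair. Whether the ACKR2 difference itself depended on tumour status was tested with a contrast chosen after the data were seen. For Vip the difference in tumours minus that without tumours was -3.12 (SE 0.527, adjusted p = 0.493 by limma), and 1 gene of 14023 passed (0.00713%), so no such dependence was shown.

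**Figure D3:**
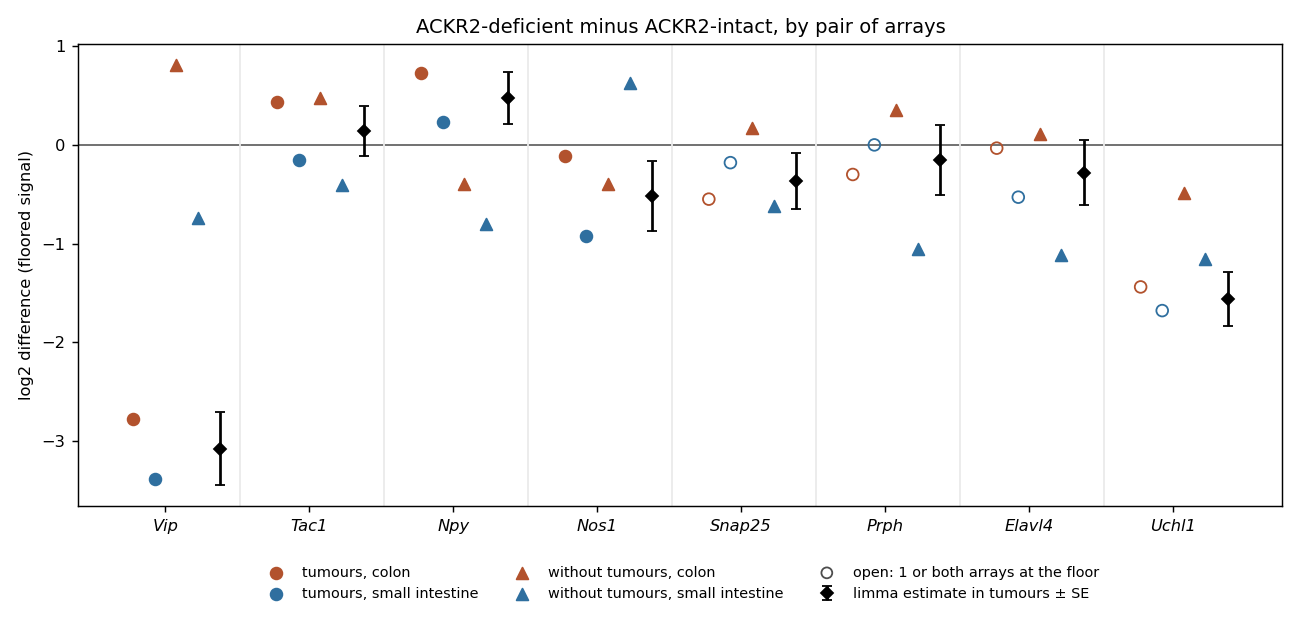
Log2 difference of each ACKR2-/- array from its ACKR2-intact partner for the 8 genes, in tumours (ACKR2-/-ApcMin/+ against ApcMin/+) and in tissue without tumours (ACKR2-/- against WT), for both tissues. Vip and Uchl1 lie lowest in both tumour pairs, and Vip lies at 0.81 in the colon and -0.74 in the small intestine of mice without tumours.

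Colon was also compared with small intestine within each tumour status. In tissue without tumours 2 of the 8 genes were higher in colon, where 13.0% of all genes were higher and 8.40% lower: Snap25 by 1.08 (SE 0.283, adjusted p = 0.0434) and Prph by 1.44 (SE 0.353, adjusted p = 0.0359 by limma) on the log2 scale. Uchl1 had a difference of 0.97 (adjusted p = 0.053), which was called in 3 of 11 alternative settings (lowest adjusted p = 0.0204 by limma), and Vip, Tac1, Npy, Nos1 and Elavl4 had adjusted p from 0.119 to 0.73. Both calls were lost, with a count of 0, when the floor was left out or set at the 25th percentile. The same held when arrays were quantile-normalised or centred on their medians. They were also lost when any 1 array was left out, which leaves 1 residual degree of freedom. That step removed nearly all calls among all genes too, so the loss there is not particular to Snap25 and Prph. In tumours none of the 8 passed (1 at an unadjusted p under 0.05), where 13.1% of all genes passed in either direction, and Npy had the lowest adjusted p, with -0.95 (SE 0.264, adjusted p = 0.0676 by limma).

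The order of the 8 arrays differed between the genes. For Vip the top array was ACKR2-/- colon, apart from the next by more than the spread of a difference between 2 arrays in the fit, then 5 arrays whose neighbours did not differ beyond that spread, and last, after a gap of 2.62 on the log2 scale, the pair of ACKR2-/-ApcMin/+ tumours. Tac1 had 1 such gap, below WT colon, and Elavl4 had them below WT colon and below the ApcMin/+ tumour of the small intestine. For Nos1 no neighbours differed beyond that spread. Snap25 and Prph had the 2 non-tumour colon arrays on top, then WT small intestine, and Uchl1 had WT colon alone on top and the pair of ACKR2-/-ApcMin/+ tumours last. Npy had the small-intestinal tumours on top and ACKR2-/- colon last. Over the 8 arrays, Snap25 and Prph had a Pearson r of 0.96, Vip and Uchl1 of 0.92, and Npy was negative with each of the others, at -0.19 to -0.58. These arrays share tumour status and tissue, so the coefficients are descriptions.

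Among all genes tested, those most like Vip over the 8 arrays were Slc24a3 (r = 0.975), Abcc9 (r = 0.965) and Xist (r = 0.963), and those most like Snap25 began with Calb2 (r = 0.993), which encodes the calcium-binding protein calretinin of many enteric neurons. The genes closest to Uchl1, Prph, Npy, Tac1, Elavl4 and Nos1 were Tfdp2 (0.991), Gal3st2c (0.992), Rfx7 (0.98), Bloc1s4 (0.967), Gnao1 (0.965) and Dusp28 (0.95).

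Other neuron genes moved the same way in part. Over all genes tested, 12.0% were lower and 13.1% higher in tumours, with a median of 0.033. Of 70 listed genes of neuron structure, identity, vesicle release and other transmitters, 53 were tested. Of these 53, 23 were lower in tumours and 2 higher, with a median of -0.54. Leaving out any 1 array took this count of called genes, like that of the glia genes below, to 0. With the 4 tumour pairs as blocks, 6 of these genes and 0 of the glia genes were called (27 and 3 at an unadjusted p under 0.05 by limma). Among structure genes 8 of 19 tested were lower and 0 higher, for example the microtubule regulators Stmn3 (-1.59, SE 0.207, adjusted p = 0.00552 by limma) and Stmn2 (-1.54) and the growth cone protein gene Gap43 (-1.15). Stmn3 read 75.9 and 79 in ACKR2-/-ApcMin/+ and 103 and 177 in ApcMin/+ tumours, against 504 and 235 in ACKR2-/- and 344 and 218 in WT tissue. Among vesicle genes 7 of 15 were lower and 1 was higher: the secretogranin gene Scg2 fell (-1.94, SE 0.21, adjusted p = 0.00348 by limma) and the syntaxin gene Stx1a rose (1.68, SE 0.175, adjusted p = 0.00314). Of the identity factors 2 of 6 were lower, with Hand2 at -2.26 (adjusted p = 0.00251), and 1 was higher, Tbx3 at 1.33 (adjusted p = 0.00342 by limma). The Tbx3 value joins a rise of 3 in colon with a difference of -0.33 in small intestine that did not pass. Of the other transmitter genes 6 of 13 were lower, among them the peptide genes Nmu (-1.59), Gal (-1.34), Penk (-1.34) and Grp (-1), and 0 were higher. The cholinergic genes Chat, Slc18a3 and Slc5a7 were not above the floor on enough arrays and were not tested.

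Most tested genes on the receiving side of these signals also fell. Of 13 listed genes for receptors of these peptides and for the response to nitric oxide, 8 were tested. Of these 8, 6 were lower and 0 higher, where 12.0% of all genes were lower and 13.1% higher. The receptor genes Vipr2, Tacr1, Tacr3, Npy2r and Npy5r were not above the floor on enough arrays and were not tested. The soluble guanylate cyclase subunits Gucy1a1 (-2.47, SE 0.186, adjusted p = 0.00138 by limma) and Gucy1b1 (-1.83), which sense nitric oxide, and the kinase gene Prkg1 (-1.88) fell most. The NPY receptor gene Npy1r fell by 1.01 on the log2 scale, all of it from the colon (-2.03), since its 4 small-intestinal arrays were below the floor. The VIP receptor gene Vipr1 fell by 0.95 and the neurokinin receptor gene Tacr2 fell by 0.78, both named after their values were seen. Of 7 tested genes that process or pack peptides 5 were lower and 0 higher, with Cpe, the carboxypeptidase of peptide maturation, at -1.93 (SE 0.217, adjusted p = 0.00387 by limma), Chgb at -1.24, Pcsk1n at -1.19 and Chga at -1.12. Chga and Chgb are also granule genes of enteroendocrine cells.

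**Figure D4:**
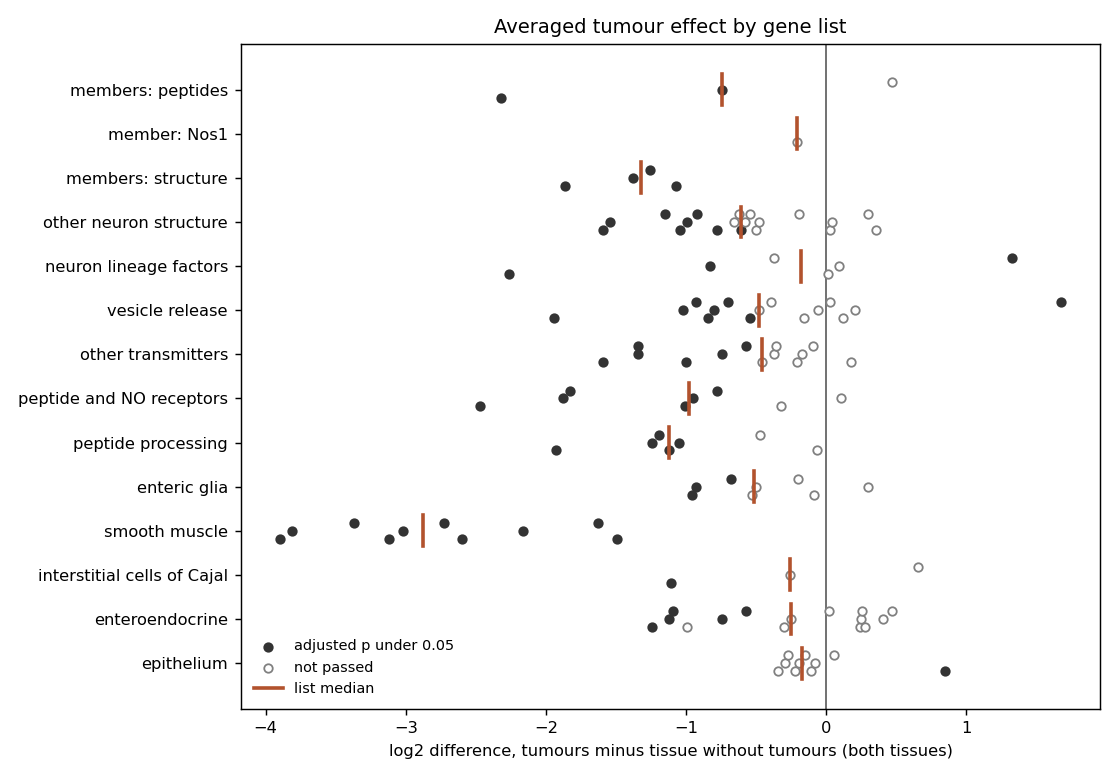
Averaged tumour difference (log2, tumour minus tissue without tumours) of each tested gene in each list, 1 point a gene, filled where the adjusted p was under 0.05, with the list's median as a line. Smooth muscle genes have the lowest median, -2.87, and epithelial genes lie near 0 at -0.17. The other neuron lists lie between, with the identity factors (neuron lineage factors in the figure) at -0.18, next to epithelium.

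Markers of other cell types in the same arrays were set beside these results, with summed signals that the brightest probe sets dominate. For the counts below, 12.0% of all genes were lower in tumours and 13.1% higher. All 10 smooth muscle genes were lower in tumours, with a median of -2.87, and their summed signal was 8507 and 8758 in ACKR2-/-ApcMin/+ tumours and 32822 and 22184 in ApcMin/+ tumours of colon and small intestine, against 104104 and 55943 in ACKR2-/- and 123396 and 53222 in WT tissue. The order of the tumour genotypes for that sum was therefore the same as for Vip and Uchl1. Synm, the smooth muscle filament gene synemin, was among the 5 genes called between the tumour genotypes, at -3.41 (adjusted p = 0.0454 by limma), and 2 of the 10 smooth muscle genes were at the floor in each ACKR2-/-ApcMin/+ tumour. Of 8 tested enteric glia genes 3 were lower (S100b at -0.96, Cdh19 at -0.93 and Erbb3 at -0.68) and 0 higher. The Cdh19 value comes from the colon alone, as its 4 small-intestinal arrays were below the floor. The summed glia signal was 3976 to 8217 in tumours and 8274 to 11124 in tissue without tumours, but most of it was Erbb3 (3380 to 7681 in tumours and 7102 to 10257 without), which epithelium also expresses. S100b read 18.2 to 44.7 in tumours, below the floor on all 4 arrays, and 82.3 to 199 in tissue without tumours. Of 10 epithelial genes 0 were lower and 1, Krt18, was higher, with summed signals of 145421 to 220269 in tumours and 152820 to 221183 in tissue without tumours. The summed enteroendocrine signal was 6181 to 13789 in tumours and 10138 to 17687 in tissue without tumours, with 5 of 15 genes lower and 0 higher. Of the genes marking interstitial cells of Cajal, the gut's pacemaker cells, 1 of 3 was lower, Thbs4 at -1.11. That value again comes from the colon alone (-2.22), as its small-intestinal arrays were below the floor. Kit (-0.26, adjusted p = 0.302) and Ano1 (0.66, adjusted p = 0.055 by limma) did not pass. In small-intestinal tumours Ano1 was higher (2.2, adjusted p = 0.0153 by limma). The part of the smaller muscle and glia signal in the fall of the neuron genes, and of the receptor and nitric oxide response genes, was not tested.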

How the data were processed

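The deposited table held 8 columns of MAS5 signal, a linear intensity per probe set, which the authors made with MAS5 and Partek per the submitters' processing notes; versions are not given in the sources used here. Per the file's values, each array had been scaled to 1 trimmed mean. Of 45101 probe sets, 64 controls, 932 assigned to several genes and 9160 assigned to none were left out, and 34945 gave 18193 genes, each represented by its probe set of highest mean. Columns of no listed sample numbered 0. Gene names came from the platform annotation.

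Signals below 64.1 (log2 6.00), the median over arrays of the 40th percentile, were set to it. Genes above it on at least 2 arrays were tested, 14023 in all, which is also how depth limits the arrays: 36.7 to 44.8% of probe sets per array were at the floor. One limma model (limma 3.58.1, R 4.3.3, lmFit and eBayes with trend) had 6 coefficients, of which 4 were intercepts (each tissue with and without tumours) and the others the ACKR2 effect in tumours and that without tumours. It left 2 residual degrees of freedom plus 4.16 prior ones, with a median SD of 0.224 on the log2 scale. Its only spread is how far the ACKR2 effect differed between tissues, so p-values describe these arrays. Tests were two-sided.

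The members and the gene lists were chosen with earlier results of these data known. Named genes were the members, up to 4 genes of each other list with the largest averaged tumour difference, the 3 genes most correlated with each member (the first of them given for most members), and the checks of sex, RNA quality and targeted genes; exceptions are marked. Alternatives changed the floor, filter, probe set rule, normalization, trend, ACKR2 term, blocks and arrays used. Promoter windows are from RefSeq.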

Additional observations from a re-analysis of the deposited data

Results flagged for a closer look

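Npy was the only one of the 8 genes whose ACKR2 pairs all pointed one way in tumours and all the opposite way without tumours. Its log2 difference was 0.73 in colon and 0.23 in small intestine for ACKR2-/-ApcMin/+ against ApcMin/+ tumours, and -0.4 in colon and -0.8 in small intestine for ACKR2-/- against WT tissue. The test of that difference, chosen after the data were seen, gave 1.08 (SE 0.373, adjusted p = 0.594 by limma), so it did not pass.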

How the results depend on the processing

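The labels give no replicate numbers to block on. With the 4 tumour pairs of equal tissue and ACKR2 status as blocks, a fit added after the data were seen, the averaged tumour difference was called for 2 members, 6 other neuron genes and 0 glia genes. Leaving out 1 array gave 0 to 0 called members in every comparison and 0 to 0 called genes of the other neuron and glia lists, with 3 to 6 members at an unadjusted p under 0.05 for the averaged tumour difference. For that difference (6 called) and for the colon (5 called) the member count was 0 without the filter, 0 without both WT arrays and 0 without both ACKR2-/-ApcMin/+ arrays (5, 6 and 1 at an unadjusted p under 0.05 by limma for the averaged difference). In small-intestinal tumours (0 called) it was 1 without the floor, after quantile normalization, with 1 ACKR2 effect for all arrays and with no trend. Between tumour genotypes (0 called) it was 1 without the floor (Vip). With 1 ACKR2 effect for all arrays, which joins the tumour and non-tumour pairs, it was 1 (Uchl1, adjusted p = 0.039 by limma). For colon minus small intestine without tumours (2 called) it was 1 with the mean of all probe sets and 0 without the floor, with the floor at the 25th percentile, after quantile normalization, with median centring, without the filter, and without both arrays of either genotype named above. The other neuron genes called (25) were 16 with the floor at the 60th percentile, 2 without the filter, and 0 without either pair of arrays. The glia genes called (3) were 1, 1, 0 and 0 under those settings. The causes were not tested. Fits without 1 array, or without either pair of arrays, left 1 residual degree of freedom, so an absence of calls there cannot decide.

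Of 680 single-gene values under settings other than leaving out 1 array, 595 kept direction and call, 59 lost the call, 9 gained it and 17 changed sign. For ACKR2-/- against WT the log2 differences that changed sign were -0.05 for Tac1, 0.1 for Snap25 and 0.03 for Prph after quantile normalization, 0.32 for Snap25, 0.2 for Prph and 0.04 for Elavl4 with median centring, -0.15 for Nos1 and 0.18 for Prph with the 60th percentile floor, and -0.02 for Tac1 and -0.18 for Nos1 with the mean of probe sets. Without the ACKR2-/-ApcMin/+ arrays the averaged tumour difference was -0.07 for Npy and 0.11 for Nos1, and that in colon was -0.33 for Npy. Without the WT arrays, colon minus small intestine was 0.3 for Tac1 and the small-intestinal tumour difference was -0.11 for Nos1. With 1 ACKR2 effect for all arrays, which joins the tumour and non-tumour pairs, the ACKR2 difference of Npy was -0.06. Prph in colon minus small-intestinal tumours was -0.22 without the floor. Leaving out 1 array, signs changed within these ranges: for ACKR2-/- against WT, -0.74 to 0.81 (Vip), -0.41 to 0.48 (Tac1), -0.4 to 0.63 (Nos1), -0.62 to 0.17 (Snap25), -1.06 to 0.35 (Prph) and -1.12 to 0.11 (Elavl4); for colon minus small intestine without tumours, -0.15 to 1.39 (Vip), -0.6 to 0.3 (Tac1) and -0.41 to 0.81 (Elavl4); for tumours, -0.86 to 0.04 (Tac1, colon), -0.47 to 0.05 (Nos1, averaged), -0.05 to 0.97 (Nos1, small intestine) and -1.06 to 0.16 (Elavl4, colon minus small intestine); and between tumour genotypes, -0.15 to 0.43 (Tac1).

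Median centring moved the median of all genes to 0.434 for ACKR2-/- against WT and 0.202 between tumour genotypes, against -0.023 and -0.033 otherwise. The share of called genes that were higher was then 95.3%, against 18.8%, for ACKR2-/- over WT, and 41.3%, against 52.3%, for tumours averaged. It was 53.6%, against 69.8%, in small-intestinal tumours and 51.2%, against 32.6%, for the colon tumour difference minus that of the small intestine. It was 56.1%, against 43.9%, for colon minus small intestine in tumours.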

Other observations

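Among the listed genes, 5 had a tumour difference in colon that differed from that in small intestine by the test of the difference. The share of all genes was 2.25%. Of 53 other neuron genes tested, 1 was higher and 1 lower. The rest were lower, 1 each of 8 receptor and response genes, 3 genes of interstitial cells and 15 enteroendocrine genes. The lists of peptide processing, glia, smooth muscle and epithelium held none. Of the 5, 4 are described here, chosen after their values were seen. Tbx3, a transcription factor gene, read 1092 in ACKR2-/-ApcMin/+ and 1038 in ApcMin/+ colon tumours, against 85.8 in ACKR2-/- and 207 in WT colon. In the small intestine it read 1409 in ACKR2-/-ApcMin/+ and 1701 in ApcMin/+ tumours, against 1467 in ACKR2-/- and 2573 in WT tissue. Its level in colon tumours was thus near that of the small intestine, and the difference of the differences was 3.32 (SE 0.287, adjusted p = 0.0102 by limma). Ano1, a chloride channel gene of interstitial cells of Cajal that epithelium can also express, read 3305 and 3234 in ACKR2-/-ApcMin/+ and ApcMin/+ colon tumours, against 6803 and 5385 in ACKR2-/- and WT colon. In the small intestine it read 830 and 1012 in ACKR2-/-ApcMin/+ and ApcMin/+ tumours, against 151 and 262 in ACKR2-/- and WT tissue, and the difference of the differences was -3.09 (SE 0.391, adjusted p = 0.0243 by limma).

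The synapsin gene Syn2 read 84.8 and 66.8 in ACKR2-/-ApcMin/+ and ApcMin/+ colon tumours, against 342 and 477 in ACKR2-/- and WT colon, and 88.7 and 170 in the small-intestinal tumours of ACKR2-/-ApcMin/+ and ApcMin/+ mice, against 71.1 and 124 in ACKR2-/- and WT small intestine (-2.81, adjusted p = 0.0495 by limma). The NPY receptor gene Npy1r read 53.4 and 74.7 in ACKR2-/-ApcMin/+ and ApcMin/+ colon tumours, against 254 and 313 in ACKR2-/- and WT colon, and was below the floor on all 4 arrays of small intestine, so its difference of -2.03 (adjusted p = 0.0305 by limma) is limited by detection there.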
